A study of Mus musculus with 12 samples.

Results

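The 36 genes described here encode receptors for GABA, glycine and glutamate, the transmitters that carry most synaptic signals in the retina. They were chosen by symbol from the 37991 genes in the deposited tables, as 28 subunits of ligand-gated ion channels and 8 G protein-coupled receptors. All 36 are autosomal. Each of them differs in sequence between the parental strains and passed the filters on low values in every comparison. The lowest, Gabra5, passed the F0 filter through its 3 C57BL/6J libraries, so its F0 values are given as a description.

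RNA from whole retinas of male mice aged 8 weeks was sequenced in 12 libraries, each made from a pool of 6 to 8 retinas. There were 3 libraries for each of 4 genotypes. F0 C57BL/6J is the standard inbred strain and F0 Cast/EiJ is a wild-derived inbred strain. F1 B6xCast hybrids had a C57BL/6J father and a Cast/EiJ mother, and F1 CastxB6 hybrids had the reverse parents. In F1 retinas, read pairs covering a strain polymorphism were assigned to 1 allele, so that both alleles were measured in the same cells. The design therefore asks how each gene differs between the strains, how much of that difference is found between the alleles within 1 retina, and whether it matters which parent an allele came from.

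Fast inhibition in the retina runs through chloride channels. GABA-A receptors are pentamers of alpha, beta and gamma or delta subunits, rho subunits form the slowly desensitizing receptors of bipolar cell terminals that were long called GABA-C receptors, and glycine receptors pair alpha subunits with Glrb. Fast excitation runs through AMPA and kainate receptors, by which OFF bipolar cells sense photoreceptor glutamate, and NMDA receptors act mainly in ganglion and amacrine cells. GABA-B and metabotropic glutamate receptors couple to G proteins and tune transmitter release or excitability.

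Depth was given by unique hits, the read pairs with 1 possible gene of origin and, in F1, 1 possible allele, and ranged from 8158534 to 12363291 per library. The 36 genes received between 13040 and 19682 of these unique hits in an F0 library and between 14243 and 19772 in an F1 library. Per F1 library with both alleles added, the mean ran from 13.5 hits for Gabra5 and 28.5 for Glra3 to 2065 for Gabbr1. On the X chromosome, between 99.36% and 99.53% of allelic hits lay on the maternal strain in the 6 F1 libraries of male mice. Retinal markers were abundant, with 37630 count equivalents for the Mueller glia gene Glul and 5570 for the rod bipolar cell gene Prkca in F0 C57BL/6J, and the pigment epithelium gene Rpe65 was at 16.2. Reads were not strand-specific. In the annotation of the same build, 9 of the 36 genes share exon bases with another annotated gene, at most 13.5% of exon bases, for Grin1 with E130003G02Rik on the other strand.

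Neighbors in the genome give one of the patterns described here, so the start regions of a pair of neighbors from each of 2 clusters are shown first. They are RefSeq windows of 300 bases on GRCm38.p6, from 250 bases before to 50 after the annotated start, written 5′ to 3′ on the strand of the gene. Capitals mark matches on either strand to 3 motifs that do not overlap in these windows. They are TAATCC, the type of site bound by the photoreceptor factor CRX, then TAATTA, a general homeodomain type, and lastly CACGTG, an E-box. Gabra4 (chr5:71658259-71658558, minus strand) and the upstream start of Gabrb1 (chr5:71657671-71657970, plus strand) point in opposite directions with annotated starts 387 bases apart. Gabrr2 (chr4:33062862-33063161, plus strand) and Gabrr1 (chr4:33132306-33132605, plus strand) point the same way with starts 69444 bases apart.
Gabra4: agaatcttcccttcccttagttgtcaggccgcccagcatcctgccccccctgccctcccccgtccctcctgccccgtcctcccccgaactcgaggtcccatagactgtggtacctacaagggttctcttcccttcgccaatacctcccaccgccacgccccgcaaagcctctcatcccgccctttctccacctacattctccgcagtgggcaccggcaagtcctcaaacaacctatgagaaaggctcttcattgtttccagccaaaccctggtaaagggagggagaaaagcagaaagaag
Gabrb1: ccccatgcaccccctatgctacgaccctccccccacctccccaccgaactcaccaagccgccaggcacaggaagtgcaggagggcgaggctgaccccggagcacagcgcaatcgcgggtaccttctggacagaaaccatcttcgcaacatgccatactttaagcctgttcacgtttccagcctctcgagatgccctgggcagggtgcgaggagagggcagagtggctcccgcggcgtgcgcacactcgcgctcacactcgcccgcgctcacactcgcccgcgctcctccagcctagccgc
Gabrr2: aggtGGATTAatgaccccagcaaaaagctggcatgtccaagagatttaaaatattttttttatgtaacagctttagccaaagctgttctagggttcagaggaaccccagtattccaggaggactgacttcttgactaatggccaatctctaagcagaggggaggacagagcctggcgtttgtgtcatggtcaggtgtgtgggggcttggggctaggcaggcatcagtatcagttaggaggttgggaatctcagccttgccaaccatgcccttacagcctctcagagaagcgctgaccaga
Gabrr1: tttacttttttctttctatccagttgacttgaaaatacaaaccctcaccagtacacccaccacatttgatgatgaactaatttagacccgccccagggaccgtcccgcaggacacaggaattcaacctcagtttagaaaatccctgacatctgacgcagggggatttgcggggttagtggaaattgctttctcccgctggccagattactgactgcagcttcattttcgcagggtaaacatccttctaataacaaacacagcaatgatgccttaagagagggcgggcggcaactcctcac
The only match among the 4 windows was 1 copy of the CRX type, on the reverse strand (printed GGATTA), near the far end of the Gabrr2 window. Of 32851 windows of this length, 7.06% hold TAATCC on either strand, 5.29% hold TAATTA and 7.15% hold CACGTG. A match describes the letters and not a bound site.

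The retinal repertoire was compared as expression per transcript length, the exponential of the deposited log expression, in units like FPKM. Levels spanned 206-fold from the highest to the lowest gene. By mean over the 12 libraries, 10 of the 36 genes lay above 10, 22 between 1 and 10, and 4 below 1. Gabbr1, the ligand-binding subunit of the GABA-B receptor, was highest at 42.2 ± 5.06 (SD, n = 12), and the lowest of its libraries lay above the highest library of the next gene. Its partner Gabbr2, which couples the receptor to G proteins, was at 11.5 ± 0.662 (SD, n = 12). The rho subunits followed, with Gabrr1 at 32.9 ± 1.59 and Gabrr2 at 28.4 ± 4.57, and the third rho gene, Gabrr3, was far lower at 5.38 ± 0.835 (SD, n = 12 each). Added up, the 3 rho genes reached 66.7 and the 7 other GABA-A subunit genes of this list 18.3, of which Gabrb2 gave the most, 6.83 ± 0.676 (SD, n = 12).

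Among the glutamate receptor genes, the mean over all libraries was highest for Grik1, the kainate subunit of OFF bipolar cells, at 27.2 ± 2.94. The obligatory NMDA subunit Grin1 was at 24.4 ± 1.05, and in F0 C57BL/6J alone its mean of 24.1 ± 1.28 lay above the 23.0 ± 2.14 of Grik1 (SD, n = 3 each). The high-affinity kainate subunit Grik5 was at 15.6 ± 1.60 (SD, n = 12 for the means over all libraries). AMPA subunits reached 14.7 ± 1.59 for Gria4 and 14.2 ± 0.604 for Gria2, the subunit that keeps AMPA receptors impermeable to calcium, and 7.30 ± 0.230 for Gria1 (SD, n = 12 each). Of the glutamate-binding NMDA subunits, Grin2d was at 3.62 ± 0.604, Grin2b at 1.94 ± 0.558, Grin2a at 1.80 ± 0.234 and Grin2c at 0.719 ± 0.194 (SD, n = 12 each). The metabotropic genes lay between 4.51 for Grm8 and 0.684 for Grm3 over all libraries. In F0 C57BL/6J Grm8 led them at 6.43 ± 0.259, and in F0 Cast/EiJ, at 2.80 ± 0.122, its mean lay below those of Grm2, Grm7, Grm5 and Grm4 (SD, n = 3 each). Gabra5, an alpha subunit known from hippocampal extrasynaptic receptors, had the lowest level, 0.205 ± 0.0501 (SD, n = 12), which is above 58.1% of all genes in the tables.

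The order is coarse. For 31 of the 35 pairs of neighbors in it, the ranges over the 12 libraries overlapped. The 4 gaps lay below Gabbr1, below Grin1, below Gabbr2 and below Grm3, so that neighbors among Gabrr1, Gabrr2, Grik1 and Grin1 were not separated. The widest range among libraries was 3.04-fold for Grm3, at a level near the bottom of the list, while Gria1 varied only 1.12-fold.

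**Figure D1:**
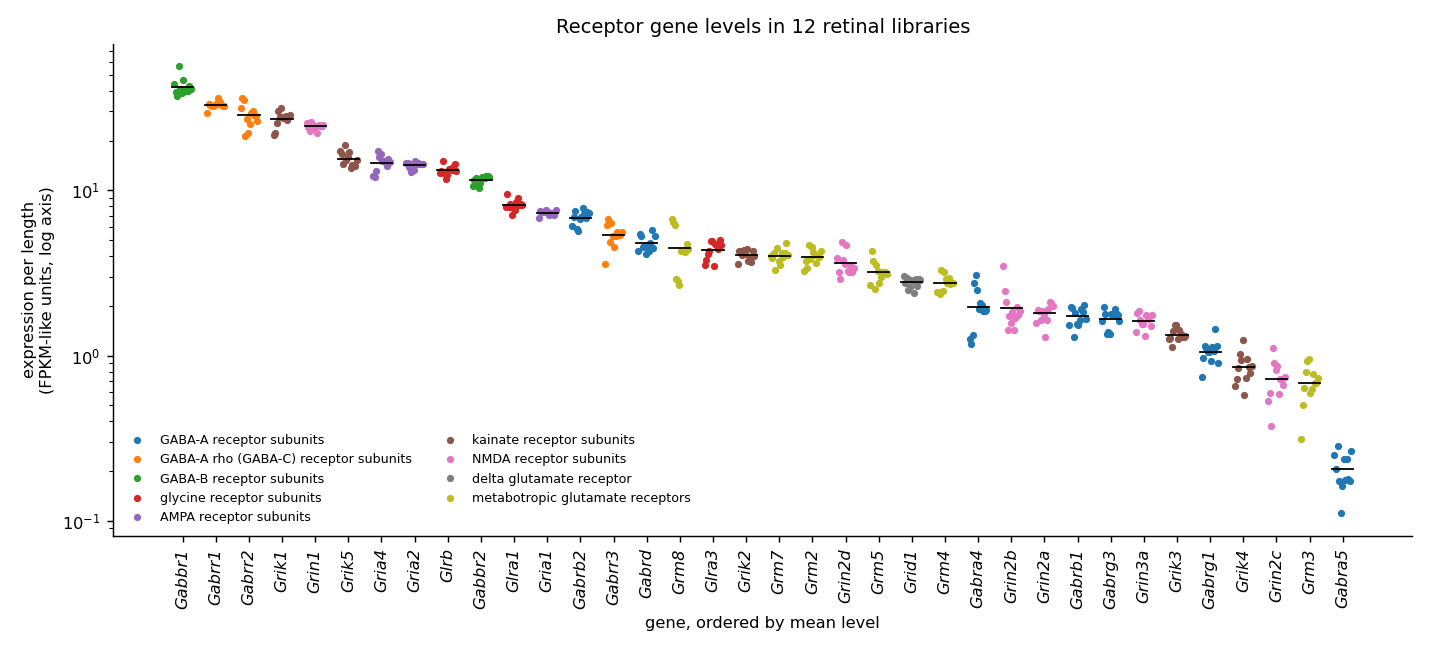
Expression per length (log axis, units like FPKM) of the 36 receptor genes in the 12 libraries, ordered by mean. Points are libraries, with F1 libraries as the mean of both alleles, bars are means and colors are receptor classes. Levels fall from 42.2 for Gabbr1 to 0.205 for Gabra5, and the ranges of most neighbors overlap.

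For differences, the normalized count equivalents of each gene were compared on the scale of log2(count equivalents + 1) with limma, and an adjusted p (Benjamini-Hochberg, over all genes tested) under 0.05 was taken as a call. Differences are Cast/EiJ minus C57BL/6J throughout. Between the F0 strains, 8 of the 36 receptor genes were called, 5 higher and 3 lower in Cast/EiJ. This is 22.2% of the receptor genes, against 33.8% called of all 14452 genes tested, of which 17.2% were higher and 16.6% lower. Gabra5 aside, 14 of the other 35 genes had no overlap between the 3 libraries of each strain, against 48.0% of all genes. The median difference was 0.01 over the receptor genes and 0.03 over all genes, and in absolute size 0.19 over the receptor genes.

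Between the alleles of the F1 hybrids, 19 of the 36 were called, 9 with the Cast/EiJ allele higher and 10 with it lower. That is 52.8%, against 47.0% of the 13414 genes tested, of which 23.5% were higher and 23.5% lower. Only 7 of the 36 had no overlap between the 6 values of each allele, against 25.5% of all genes. Of the 19 allelic differences, 16 were smaller than 1.5-fold. Without F1 CastxB6 replicate 3, 12 of the 36 were called. The median was -0.0049 over the receptor genes and 0.0014 over all genes. Called in both comparisons were 7 genes, 6 of them in the same direction. In F0 alone 1 gene was called, in F1 alone 12, and in neither 16. A call in one comparison and none in the other does not show that the effects differ, and that difference was tested by itself (below as F0 minus F1).

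**Figure D2:**
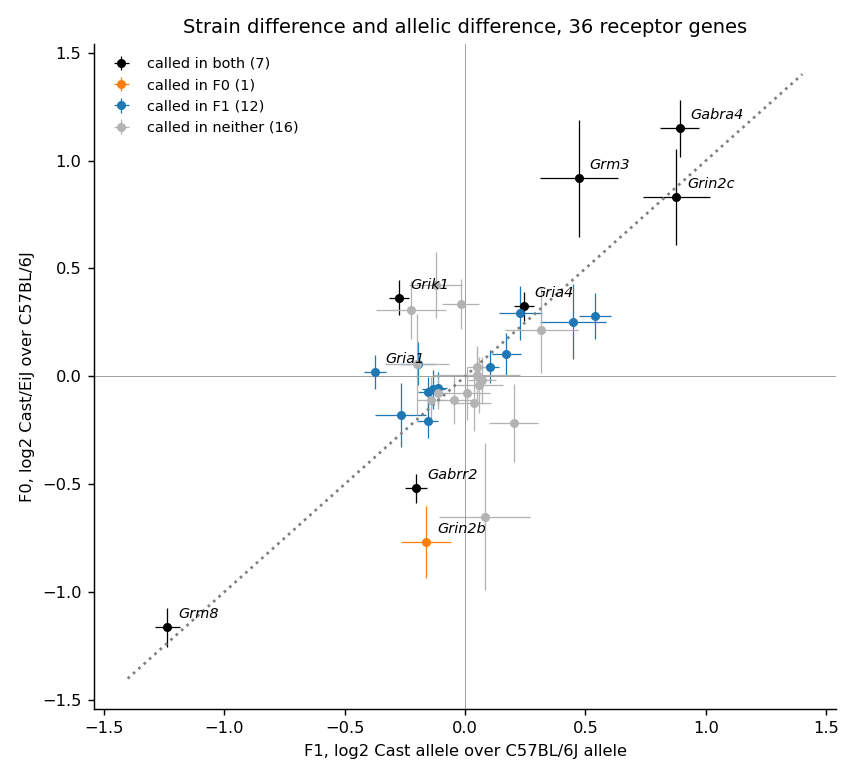
Log2 difference between the F0 strains (vertical axis) against log2 ratio of the alleles in F1 (horizontal axis) for the 36 receptor genes, with standard errors and a dotted line of equality. Grm8, Gabra4 and Grin2c lie far from 0 on both axes, Grik1 lies on opposite sides of 0 in F0 and F1, and Gria1 is near 0 in F0 and at -0.37 in F1.

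Among the GABA-A subunits, Gabra4 was higher in Cast/EiJ in both settings. Gabra4 encodes an alpha subunit of extrasynaptic receptors (NCBI37 chr5:71960973-72049547, minus strand). In F0 C57BL/6J it had 97.7, 92.6 and 104 count equivalents, and in F0 Cast/EiJ 216, 245 and 197. The strains did not overlap, with a log2 difference of 1.15 ± 0.13 (SE, adjusted p = 0.000215), which is 2.22-fold. In F1 the C57BL/6J allele had between 85.3 and 125 count equivalents (median 99.1) and the Cast/EiJ allele between 170 and 207 (median 194). The alleles did not overlap either, and the log2 ratio was 0.89 ± 0.08 (SE, adjusted p = 8.06e-08), higher in 6 of 6 libraries. The F0 and F1 differences did not differ beyond their error (0.26 ± 0.14 SE, adjusted p = 0.257).

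The other called GABA-A subunits were called between alleles and not between strains. Gabrg1, a gamma subunit, had a log2 ratio of 0.45 ± 0.14 (SE, adjusted p = 0.0123), with 56.2 to 109 count equivalents for the C57BL/6J allele and 89.2 to 126 for the Cast/EiJ allele. Gabrb2, a beta subunit of the most common GABA-A receptors, was lower from the Cast/EiJ allele by a small margin (-0.15 ± 0.04 SE, adjusted p = 0.00809), at 819 to 912 against 903 to 1050, lower in 5 of 6 libraries. Between the F0 strains Gabrb2 did not overlap, at 694 to 789 in Cast/EiJ against 833 to 907. That difference was -0.20 ± 0.08 (SE, limma adjusted p = 0.0779), called in 3 of 15 alternatives. Gabrd, the delta subunit of tonic inhibition, had -0.27 ± 0.10 (SE, adjusted p = 0.0449), lower in 4 of 6 libraries, and was past the threshold in 12 of 21 alternatives. On the deposited log expression, the allelic calls of Gabrg1 (0.31, adjusted p = 0.194) and Gabrb2 (-0.08, adjusted p = 0.351) were lost. Gabra5, Gabrb1 and Gabrg3 were not called in either comparison. For Gabrg3 the allelic value changed sign with the measure, from 0.07 ± 0.06 on count equivalents (SE, adjusted p = 0.356) to a called -0.30 on log expression (adjusted p = 0.00501). In F0, Gabra5 had 12.3, 10.2 and 14.0 count equivalents in C57BL/6J and 8.63, 5.55 and 8.16 in Cast/EiJ.

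Of the rho subunits, Gabrr2 was lower in Cast/EiJ in both settings and its neighbor Gabrr1 gave no call. Gabrr2 (NCBI37 chr4:33149974-33182840, plus strand) had 967, 993 and 1020 count equivalents in F0 C57BL/6J and 704, 683 and 693 in F0 Cast/EiJ. The strains did not overlap, and the log2 difference was -0.52 ± 0.07 (SE, adjusted p = 0.000511). In F1 its C57BL/6J allele had 853 to 1000 (median 943) and its Cast/EiJ allele 751 to 875 (median 819). These ranges overlap, but within each of the 6 libraries the Cast/EiJ allele was lower, with a log2 ratio of -0.20 ± 0.05 (SE, adjusted p = 0.00145). The F0 difference exceeded the F1 difference by -0.31 ± 0.08 (SE, adjusted p = 0.0169), a call that is lost on the deposited log expression (-0.19, adjusted p = 0.332). On that measure the allelic log2 ratio of Gabrr2 was larger, -0.37 (limma adjusted p = 0.000324). Gabrr1 (NCBI37 chr4:33219496-33250563, plus strand) had 1220, 1410 and 1380 in F0 C57BL/6J and 1360, 1360 and 1410 in F0 Cast/EiJ. Its differences were 0.05 ± 0.08 in F0 and 0.05 ± 0.04 in F1 (SE, adjusted p = 0.678 and 0.328). Gabrr3 was called in neither, with -0.20 ± 0.13 in F1 (SE, adjusted p = 0.236).

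For the 5 pairs of receptor genes that are next to each other in this list and less than 1000000 bases apart on NCBI37, the allelic log2 ratios were set against each other within each F1 library. Gabrr2 lay below Gabrr1 in 6 of 6 libraries, by -0.25 ± 0.063 (SD, n = 6, two-sided exact permutation of signs, p = 0.0312, the smallest that 6 libraries allow, and 0.0521 adjusted over the 5 pairs). Gabra4 lay above Gabrb1 in 6 of 6 libraries, by 0.69 ± 0.37 (SD, n = 6, the same exact permutation p). On NCBI37, where the ratios were measured, Gabra4 and Gabrb1 are 41624 bases apart. The 387 bases given earlier are to the upstream RefSeq start of Gabrb1 on GRCm38.p6. Gabra4 also lay above Gabrg1, 727117 bases away, in all 6 by the same test, and the mean difference, Gabrg1 minus Gabra4, was -0.44 ± 0.42 (SD, n = 6). Genes outside this list that may lie between the members of a pair were not compared. Gria2 and Glrb, 40808 bases apart, differed by -0.02 ± 0.14 (SD, n = 6, exact permutation p = 0.75), and both were slightly lower from the Cast/EiJ allele. Gabrg3 and Gabra5 differed by -0.01 ± 0.42 (SD, n = 6, exact permutation p = 0.906). No pair passes 0.05 after adjustment, which the smallest possible p would allow only if at least 4 of the 5 pairs reached it.

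**Figure D3:**
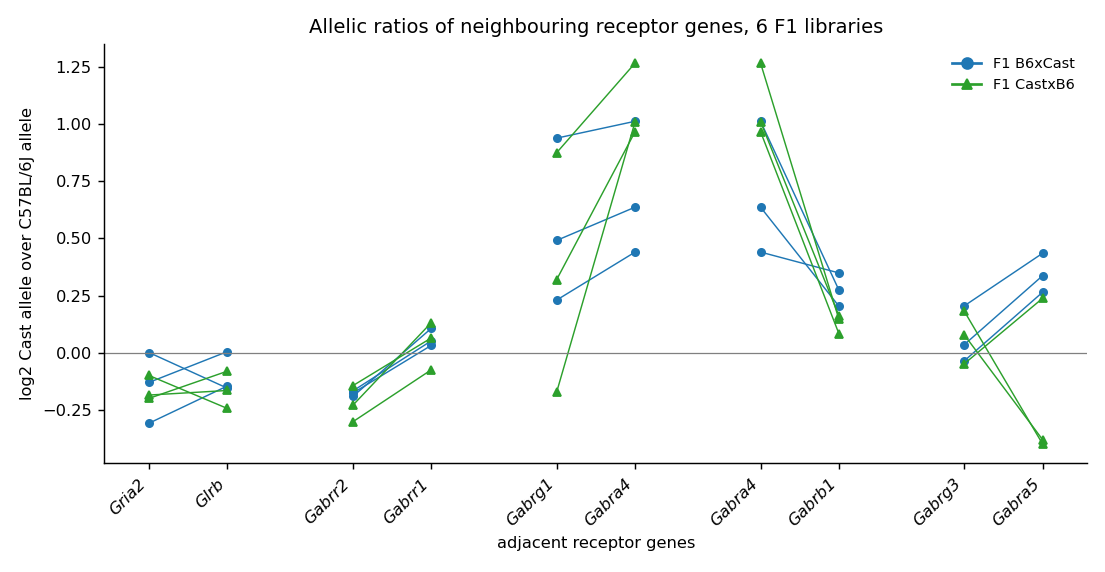
Allelic log2 ratios (Cast/EiJ over C57BL/6J) of 5 pairs of receptor genes that are next to each other in this list, with a line for each of the 6 F1 libraries. All lines rise from Gabrr2 to Gabrr1 and from Gabrg1 to Gabra4 and fall from Gabra4 to Gabrb1, while those of Gria2 with Glrb and of Gabrg3 with Gabra5 cross.

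None of the 2 GABA-B and 3 glycine receptor genes of this list was called between the F0 strains, and 1 of each class was called between the alleles. In F1, Gabbr2 had a C57BL/6J allele of 1310 to 1380 and a Cast/EiJ allele of 1230 to 1290 count equivalents. The alleles did not overlap, yet the difference was only -0.11 ± 0.03 (SE, adjusted p = 0.0135), and it was lost under TMM factors (-0.09, adjusted p = 0.0702). Gabbr1 had the same size of difference, -0.11 ± 0.05 (SE, adjusted p = 0.0784), lower in 6 of 6 libraries, and on log expression it was called at -0.30 (adjusted p = 0.01). Glrb, the anchoring subunit of glycine receptors, was at -0.13 ± 0.05 in F1 (SE, adjusted p = 0.0343), lost under TMM factors (-0.11, adjusted p = 0.0987) and larger on log expression (-0.29, adjusted p = 0.000245). The alpha subunits Glra1 and Glra3 were called in neither comparison. Glra3 had 123, 137 and 149 count equivalents in F0 C57BL/6J and 150, 181 and 176 in F0 Cast/EiJ, without overlap, a difference of 0.31 ± 0.13 (SE, adjusted p = 0.108).

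Each of the 3 AMPA subunits of this list differed between alleles, and Gria1 did so without a strain difference. Gria3, on the X chromosome, is not in the list and was not tested. Gria1 (NCBI37 chr11:56824889-57143746, plus strand) had 707, 786 and 770 count equivalents in F0 C57BL/6J and 724, 772 and 799 in F0 Cast/EiJ, which overlap. The F0 difference was 0.02 ± 0.08 (SE, adjusted p = 0.865). In F1 the C57BL/6J allele had 781 to 864 (median 842) and the Cast/EiJ allele 593 to 688 (median 636), without overlap. The log2 ratio was -0.37 ± 0.05 (SE, adjusted p = 3.82e-06), lower in 6 of 6 libraries, and F0 minus F1 was 0.40 ± 0.08 (SE, adjusted p = 0.00424). Gria4, a subunit of fast AMPA receptors, was higher in Cast/EiJ in both settings. It had 1170, 1190 and 1250 count equivalents in F0 C57BL/6J and 1540, 1440 and 1540 in F0 Cast/EiJ, a difference of 0.32 ± 0.07 (SE, adjusted p = 0.00611). Its allelic ratio was 0.24 ± 0.04 (SE, adjusted p = 0.000155). Gria2 had a small allelic difference of -0.15 ± 0.04 (SE, adjusted p = 0.00452) and an F0 difference of -0.07 ± 0.07 (SE, adjusted p = 0.453).

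Of the kainate subunits, Grik1 was called in opposite directions in the F0 strains and in the F1 alleles. Grik1 (NCBI37 chr16:87896441-88289947, minus strand) had 1030, 1060 and 1190 count equivalents in F0 C57BL/6J and 1380, 1350 and 1490 in F0 Cast/EiJ. The Cast/EiJ libraries lay above without overlap, by 0.36 ± 0.08 (SE, adjusted p = 0.0081). In F1 the C57BL/6J allele had 1370 to 1500 (median 1435) and the Cast/EiJ allele 1130 to 1270 (median 1165). Here the Cast/EiJ allele lay below without overlap, by -0.27 ± 0.04 (SE, adjusted p = 3.57e-05), lower in 6 of 6 libraries. F0 minus F1 was 0.64 ± 0.07 (SE, adjusted p = 1.97e-05), and it was called in all 19 alternatives run for it. The unique hits alone gave the same directions, 0.34 in F0 and -0.28 in F1 by edgeR (adjusted p = 0.00508 and 1.65e-07).

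Grik3, a low-affinity kainate subunit, had the widest allelic difference of the kainate class. Its C57BL/6J allele had 167 to 213 and its Cast/EiJ allele 246 to 278 count equivalents. They did not overlap, and the log2 ratio was 0.54 ± 0.07 (SE, adjusted p = 3.27e-06). The F0 strains did not overlap for Grik3 either, at 218, 225 and 196 against 242, 267 and 267, but the difference of 0.28 ± 0.11 missed the threshold (SE, adjusted p = 0.0717). Grik2 was at 0.17 ± 0.06 (adjusted p = 0.027) and Grik5 at -0.20 ± 0.07 (adjusted p = 0.0295) between alleles (limma, SE), while Grik4 was called in neither comparison.

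**Figure D4:**
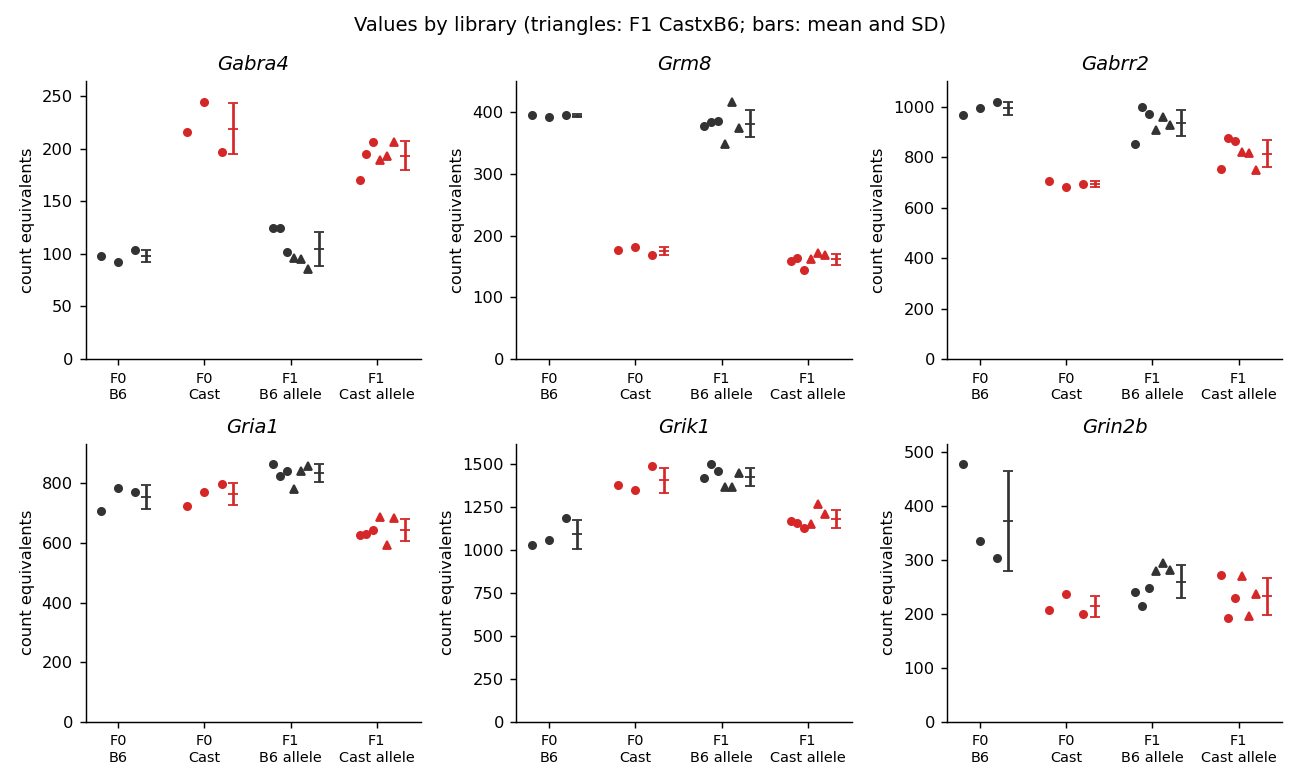
Count equivalents of Gabra4, Grm8, Gabrr2, Gria1, Grik1 and Grin2b in the 3 libraries of each F0 strain and for each allele of the 6 F1 libraries, with mean and SD beside the points. The vertical axes start at 0. For Gabra4 and Grm8 neither strains nor alleles overlap, for Gria1 the alleles alone do not, Grik1 changes direction, and 1 F0 C57BL/6J library of Grin2b stands at 478.

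Among the NMDA subunits, Grin2c, a subunit best known from the cerebellum, was higher in Cast/EiJ in both settings at a low level. It had 49.1, 49.0 and 32.3 count equivalents in F0 C57BL/6J and 90.6, 73.8 and 67.5 in F0 Cast/EiJ. The strains did not overlap, with a difference of 0.83 ± 0.22 (SE, adjusted p = 0.0191). In F1 its C57BL/6J allele had 38.2 to 49.2 and its Cast/EiJ allele 61.6 to 109, resting on 74 and 136 unique hits over the 6 libraries. The alleles did not overlap, and the ratio was 0.88 ± 0.14 (SE, adjusted p = 5.99e-05). Leaving out F0 C57BL/6J replicate 3 or F0 Cast/EiJ replicate 1 or 2 left its F0 difference short of the threshold (0.63 to 0.86, adjusted p = 0.051 to 0.0636), and with no filter on low values its adjusted p was 0.105.

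Grin2b, the subunit of slow NMDA currents, had 478, 336 and 304 count equivalents in F0 C57BL/6J and 207, 237 and 200 in F0 Cast/EiJ. The difference was -0.77 ± 0.17 (SE, adjusted p = 0.00767). The first C57BL/6J library held 207 unique hits for it, against 301 and 208 in the other two, so its high value is not seen in the unique hits. Without that library the F0 difference was -0.58 (adjusted p = 0.0093), and edgeR on unique hits gave -0.45 (adjusted p = 0.0179). The alleles of Grin2b gave no call (-0.16 ± 0.10 SE, adjusted p = 0.221). F0 minus F1 was -0.61 ± 0.19 (SE, adjusted p = 0.042), and without that library -0.41 (adjusted p = 0.127). Grin1 had a slight allelic difference of 0.10 ± 0.04 (SE, adjusted p = 0.0492), called in 10 of 21 alternatives. Grin2a, Grin2d and Grin3a, and Grid1 of the delta class, were called in neither comparison. Grin2d did not overlap between the F0 strains, at 364, 307 and 261 against 496, 386 and 367, a difference of 0.42 ± 0.15 (SE, adjusted p = 0.0612), and it was called in 4 of 15 alternatives (lowest adjusted p = 0.00402, with a replicate block).

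Of the metabotropic receptors, Grm8, a group III receptor that limits glutamate release, was lower in Cast/EiJ in both comparisons, by more than 2-fold. Grm8 (NCBI37 chr6:27225121-28085178, minus strand) had 396, 392 and 395 count equivalents in F0 C57BL/6J and 176, 182 and 169 in F0 Cast/EiJ. The strains lay far apart, with a difference of -1.16 ± 0.09 (SE, adjusted p = 2.33e-05), which is 2.24-fold. In F1 the C57BL/6J allele had 349 to 417 (median 381) and the Cast/EiJ allele 144 to 171 (median 163). The alleles did not overlap, and the log2 ratio was -1.24 ± 0.05 (SE, adjusted p = 7.18e-12), lower in 6 of 6 libraries. F0 minus F1 was 0.07 ± 0.10 (SE, adjusted p = 0.676). The allele with the lower value had 344 unique hits over the 6 libraries and the other 751.

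Grm3, a group II receptor, was higher in Cast/EiJ with few reads. It had 20.8, 33.6 and 42.8 count equivalents in F0 C57BL/6J and 53, 62.4 and 64 in F0 Cast/EiJ. The strains did not overlap, and the difference was 0.92 ± 0.27 (SE, adjusted p = 0.029), called in 8 of 14 alternatives. Between alleles it was 0.47 ± 0.16 (SE, adjusted p = 0.0241), higher in 6 of 6 libraries, called in 14 of 20 alternatives, and without F1 CastxB6 replicate 3 it was 0.32 (adjusted p = 0.153). Grm4, a group III receptor, was called between alleles (0.23 ± 0.09 SE, adjusted p = 0.0398) and not between strains. Its allelic call was kept in 14 of 21 alternatives, and without F1 CastxB6 replicate 2 the value was 0.11 (adjusted p = 0.275). Grm2, Grm5 and Grm7 were called in neither. Grm2 did not overlap between the F0 strains, at 203 to 234 in C57BL/6J against 242 to 291 in Cast/EiJ. Its difference was 0.33 ± 0.12 (SE, limma adjusted p = 0.0534), called in 3 of 15 alternatives. Gabra5 aside, the 27 genes not called in F0 had differences between -0.22 and 0.42 with standard errors of 0.07 to 0.23, and the 17 not called in F1 lay between -0.22 and 0.32 with standard errors of 0.04 to 0.19.

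In all, 4 of the 36 genes had an F0 difference that departed from the F1 allelic difference (11.1%, against 14.0% of the 13414 genes tested), namely Grik1 and Gria1 with a positive difference, against 5.64% of all genes, and Gabrr2 and Grin2b with a negative one, against 8.31%. This test shares its libraries with both comparisons. The contrast of maternal with paternal allele, averaged over the reciprocal crosses, gave 0 calls among the 36 genes with limma, against 0.492% of all genes, 0.179% with the maternal and 0.313% with the paternal allele higher. At an unadjusted p under 0.05 there was 1 gene with limma, and edgeR on unique hits called 0, with 0 at an unadjusted p under 0.05. Gabrg3 and Gabra5 lie on chromosome 7, in a region whose other genes include imprinted ones. Their maternal minus paternal values were -0.0008 ± 0.06 for Gabrg3 and 0.26 ± 0.19 for Gabra5 (SE, limma, adjusted p of at least 0.986).

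In bulk retina, fewer cells of a type and less RNA per cell cannot be told apart, and marker genes moved between the F0 strains. Of 10 amacrine cell markers, 5 were called higher in Cast/EiJ and 0 lower, and their summed level was 22730 to 23680 count equivalents in F0 Cast/EiJ against 18890 to 20480 in F0 C57BL/6J. Of 8 ganglion cell markers, 0 were called higher and 4 lower, with sums of 10090 to 11080 against 14500 to 16010. Of 4 cone markers tested, 0 were called higher and 2 lower, with sums of 8475 to 9480 against 11870 to 13550. The sums were also lower in F0 Cast/EiJ for oligodendrocyte markers, at 307 to 338 against 510 to 539 (1 tested, called lower), and for blood markers, at 373 to 634 against 688 to 1041 (3 of 4 tested called lower). Of the pigment epithelium markers, Ttr (40.6 against 138) and Rgr (26.7 against 74.8) were called lower. The sums of this list overlapped, but Rlbp1, which is also on the Mueller glia list, made up most of them (3873 against 3310). Each other gene of the list had a lower mean in F0 Cast/EiJ. Of 7 rod markers, 2 were called higher and 0 lower, with sums of 809200 to 855500 against 799100 to 803600. One of these, Sag, had a mean of 116000 against 51330. Of the remaining lists, 1 of 6 Mueller glia markers was called higher and 2 lower, 1 of 5 horizontal cell markers lower, and 0 of 4 lens markers in either direction. Of 9 bipolar cell markers, which include Grik1, 2 were called higher and 0 lower, and the sums overlapped (21280 to 22110 against 19910 to 22570). Some called markers also differed between the F1 alleles in the F0 direction. Among them were Gad2, Slc6a9 and Th of the amacrine list (log2 ratios of 0.52, 0.37 and 0.73), Cabp5 (1.46), Thy1 (-0.27) and Mbp (-1.16). Others, such as Tfap2a, Pax6, Nefm and Ttr, were not called between alleles, and Apoe was called in the opposite direction (0.26). The part of the F0 marker shifts in the F0 differences of the receptor genes was not tested. The alleles of an F1 library are read from the same cells, and there Gabra4, Gabrr2, Gria4, Grin2c, Grm3 and Grm8 were called in the F0 direction, Grik1 was called in the opposite direction and Grin2b was not called.

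The wider set of genes for inhibitory and excitatory transmission was described by 77 further genes, namely other receptor subunits, scaffolds and auxiliary subunits, and genes of transmitter synthesis and transport. Of the 64 tested in F0, 9 were higher and 9 lower in Cast/EiJ (28.1% called, against 33.8% of all genes), and of the 61 tested in F1, 15 were higher and 14 lower from the Cast/EiJ allele (47.5%, against 47.0% of all genes). The widest called changes at 100 count equivalents or more included a receptor subunit of the same chromosome as Gabra4. Gabra2, an alpha subunit, had 109 ± 11.8 count equivalents in F0 C57BL/6J and 384 ± 52.7 in F0 Cast/EiJ (SD, n = 3 each), a difference of 1.81 ± 0.14 (SE, limma adjusted p = 2.06e-05), and an allelic ratio of 1.41 ± 0.09. Slc17a8, the vesicular glutamate transporter of a subset of amacrine cells, was lower in F0 by -0.78 ± 0.15 and in F1 by -0.96 ± 0.12 (SE, adjusted p = 0.00382 and 3.27e-06). The scaffold gene Homer2 was lower by -0.52 ± 0.11 and -0.51 ± 0.07 (SE, adjusted p = 0.00528 and 1.10e-05). Cacng7, an auxiliary subunit of AMPA receptors, was like Gria1 in having no call in F0 (0.03 ± 0.26 SE, adjusted p = 0.951) and an allelic difference, here upward, of 1.42 ± 0.17 (SE, adjusted p = 3.84e-06), with F0 minus F1 at -1.39 ± 0.32 (SE, adjusted p = 0.00708).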

How the data were processed

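Libraries were 3 pools of retinas per genotype. The authors trimmed reads (Trim Galore 0.2.6), mapped them with Bowtie 0.12.9 to strain or hybrid transcriptomes (Ensembl release 67, NCBI37/mm9) and estimated expression with MMSEQ. Polyadenylated RNA was read as paired ends (101 bp each). F0 libraries had 1 lane and F1 libraries 2 lanes, so lane number and generation cannot be told apart. The deposited signal, called count equivalents, was normalized by the authors across libraries, is not whole and splits reads shared by genes or alleles by estimate. The deposited natural log of expression is per transcript length. The deposited count of unique hits is raw. The authors' table of MMDIFF results (posterior probabilities and Bayes factors) and the table of posterior standard deviations were not used, which leaves out 54 columns. Each F1 allele column is scaled like a whole library, so the level of an F1 library is the mean of its allele columns.

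Members and lists were chosen with earlier results of these data known. limma 3.58.1 (R 4.3.3) was fitted to log2(count equivalents + 1), pseudocount 1. The F0 comparison had no covariates and took autosomal genes reaching 10 count equivalents in 3 or more F0 libraries. Alleles, F0 minus F1 and parent of origin were tested in 1 model of all libraries that blocked on F1 library (duplicateCorrelation, consensus 0.135), for autosomal genes averaging 10 or more allelic unique hits per F1 library. Adjusted p-values (Benjamini-Hochberg) cover all genes tested. Neighbors were compared by permuting signs over the 6 F1 libraries (64 permutations, scipy 1.17.1). On simulated data, limma recovered 64.5% of 2-fold changes in F0, among 14452 genes, and, among 13414 genes, 89% in F1, 69.5% in F0 minus F1 and 91.5% in parent of origin.

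All 36 members are reported, those called in any comparison with their values. Of the further genes, the 2 widest called changes in each direction per comparison were named where a group mean reached 100 count equivalents, except 1 gene that is not reported here. Promoters come from RefSeq (GRCm38.p6), and the 4 genes shown were chosen after their values were seen. Alternatives were other pseudocounts, TMM factors, log expression, other filters, a replicate block, libraries left out, ratios within libraries, edgeR 4.0.16 and DESeq2 1.42.0 on unique hits. Python 3.11.15 was used with pandas 2.3.3, numpy 2.4.6 and matplotlib 3.10.9.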

Additional observations from a re-analysis of the deposited data

Results flagged for a closer look

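For 4 receptor genes the Cast/EiJ minus C57BL/6J difference was not the same in the F0 strains and between the F1 alleles, by a limma test of that difference itself. F0 minus F1 on the log2 scale was 0.64 for Grik1, whose F0 and allelic differences were called in opposite directions. It was 0.40 for Gria1, which differed between alleles and gave no call between strains. It was -0.31 for Gabrr2, lower in Cast/EiJ in both settings, and -0.61 for Grin2b, where 1 of the 3 F0 C57BL/6J libraries stood above the other two. Grik1 and Gria1 were called in all 19 alternatives, Gabrr2 in 18 and Grin2b in 9. For none of the 36 genes did 1 of the 6 F1 libraries stand apart in its allelic log2 ratio by Dixon's test at the 95% level.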

How the results depend on the processing

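None of the called receptor differences, nor the F0 and F1 calls of the named further genes, reversed under the alternatives run for them. For other differences of the further genes no alternatives are reported. With no filter on low values, 4 receptor genes and 11 further genes were called in F0, in place of 8 and 18. With the deposited log expression, 2 receptor genes were called in F0 minus F1, in place of 4. Leaving out each library in turn, the count of receptor genes called ran from 7 to 8 in F0, from 12 to 19 in F1 (12 without F1 CastxB6 replicate 3), from 3 to 4 in F0 minus F1 and stayed at 0 for parent of origin, and that of further genes from 12 to 18 in F0 and from 22 to 30 in F1. For F0, edgeR and DESeq2 on unique hits called 11 and 9 receptor genes. For the allelic difference, edgeR called 19 receptor genes and 42 further genes, and the ratio within libraries 13 receptor genes. Past the threshold in every alternative were 4 of the 8 F0 calls (Gabra4, Gabrr2, Gria4 and Grm8), 8 of the 19 allelic calls (Gabra4, Gabrr2, Gria1, Gria4, Grik1, Grik3, Grin2c and Grm8) and 2 of the 4 F0 minus F1 calls (Grik1 and Gria1). The cause of the changes was not tested, apart from the filter and left-out libraries, which by construction alter the genes or samples tested. By expression per length or by count equivalents, 9 of the 10 highest receptor genes were shared.

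TMM factors moved the split of all F0 calls from 2486 higher and 2401 lower to 1733 and 2916, of all F0 minus F1 calls from 757 and 1115 to 522 and 1197, and of all parent-of-origin calls from 24 and 42 to 52 and 34. Same-numbered libraries deviated together with correlations between -0.085 and 0.381. Among F0 C57BL/6J, F0 Cast/EiJ and F1 B6xCast these were all positive, from 0.020 to 0.381, and with F1 CastxB6 they lay between -0.085 and 0.048. Differently numbered libraries of the former groups ran from -0.286 to 0.217. Whether replicate numbers pair the samples is not settled by this, and the main models did not use them. With a replicate block, 11 receptor genes were called in F0, 17 in F1, 5 in F0 minus F1 and 0 for parent of origin, and 27 and 33 further genes in F0 and F1. The allelic differences of Grin2c and Grm3 rest on few reads.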

Other observations

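Among 29 receptor genes with at least 30 unique hits in every column, the ratio of count equivalents to unique hits was compared between columns after scaling by the median of each column, a check chosen after the values were seen. Of 522 values, 1 departed by over 1.5-fold from the median of the other columns of its kind, Grin2b in F0 C57BL/6J replicate 1, where it was 1.88-fold higher. Grin2a had fewer hits and was outside this check. In F1 CastxB6 replicate 2 its alleles had 82.8 and 87.9 count equivalents on 48 and 43 unique hits, while in replicates 1 and 3 they had 168 to 195 on 38 to 51 hits.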
